A study of Mus musculus with 2 samples.

Results

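The collagen genes encode the chains of the collagen proteins, and were taken here as every gene whose whole symbol reads Col, a number, a and a number. This rule found 44 of the 56941 genes in the count tables. They were measured by single-cell RNA sequencing in subcutaneous tumours that MC38, a mouse line labelled as colon adenocarcinoma cells, formed in C57BL/6 mice of WT genotype as labelled. Before injection a pool of MC38 cells, which was not a clone, had received SPP1 (osteopontin, a secreted glycoprotein) or a vector alone by lentivirus. From day 7 the mice of both groups were given anti-PD-1, an antibody that blocks a checkpoint of T cells. The dose was 10 mg/kg, given 2 times a week over 2 weeks. Each group was 1 tumour of 1 mouse, so differences between the libraries have no replicate check, and no p-value is given. Intervals are at the 95% level and hold for counting error alone.

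Collagen chains wind around each other into a helix and leave the cell as procollagen, which is trimmed, assembled and crosslinked outside it. Fibrillar collagens build the cables of connective tissue, network collagens build basement membranes, and the beaded filaments of type VI link cells to both. In solid tumours fibroblasts are known as a main source of the fibrillar chains, while endothelial cells and pericytes lay down the type IV network around vessels. A molecule of type I holds more of the product of Col1a1 than of Col1a2, while type III is built from the product of Col3a1 alone.

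The library labelled vector held 14317 barcodes and the library labelled SPP1 14029, with medians of 10277 and 10218 UMIs (unique molecular identifiers, which mark counted RNA molecules) per barcode. After filters 13962 and 13555 cells were left, and 93 barcodes occurred in both libraries. Pairs of values below give the vector library first, and ratios in parentheses are log2 ratios of SPP1 over vector, with their intervals. A level, written CPM, is a gene's UMIs scaled to a total of 1e+06 UMIs in the class. The mouse gene Spp1 was at 135 and 128 CPM in the compartment described next and at 14002 and 4152 CPM in fibroblast-like cells. It was higher in neither case in the library labelled SPP1. The labels do not give the species of the introduced SPP1, so its RNA may not be counted under this gene. The label could not be checked in this way, and every direction below is between libraries as labelled. Most cells (10119 and 9931) fell into a set of 15 clusters with Hmga2 and Sox9, called the compartment here. Its epithelial markers Krt8 (0.155 and 0.208 CPM) and Epcam (0.0140 and 0.00717 CPM) were near 0, so these markers of the labelled cell type were all but absent. The other classes were macrophage/monocyte-like (924 and 750 cells), T and NK-like (170 and 109), fibroblast-like (41 and 45), endothelial-like (18 and 22), dendritic cell-like (45 and 24) and pericyte or smooth muscle-like (4 and 7). Collagen genes were kept out of the variable genes for clustering and out of the marker lists.

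Collagen genes gave 1.01% and 1.04% of the compartment's UMIs. In fibroblast-like cells the share was 9.58% and 6.38%, and in pericyte or smooth muscle-like cells 3.42% and 3.14%. In endothelial-like cells it was 0.764% and 0.756%. These shares kept the same order in both libraries. Macrophage/monocyte-like cells had 0.0463% and 0.0642% and T and NK-like cells 0.0597% and 0.0629%, at median depths of 7477 and 6900 and of 3545.5 and 3609 UMIs. Of the compartment's UMIs, fibrillar genes gave 0.764% and 0.815% and beaded filament genes 0.185% and 0.159%. Short-chain network genes gave 0.0335% and 0.0396% and basement membrane network genes 0.0149% and 0.0144%.

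**Figure D1:**
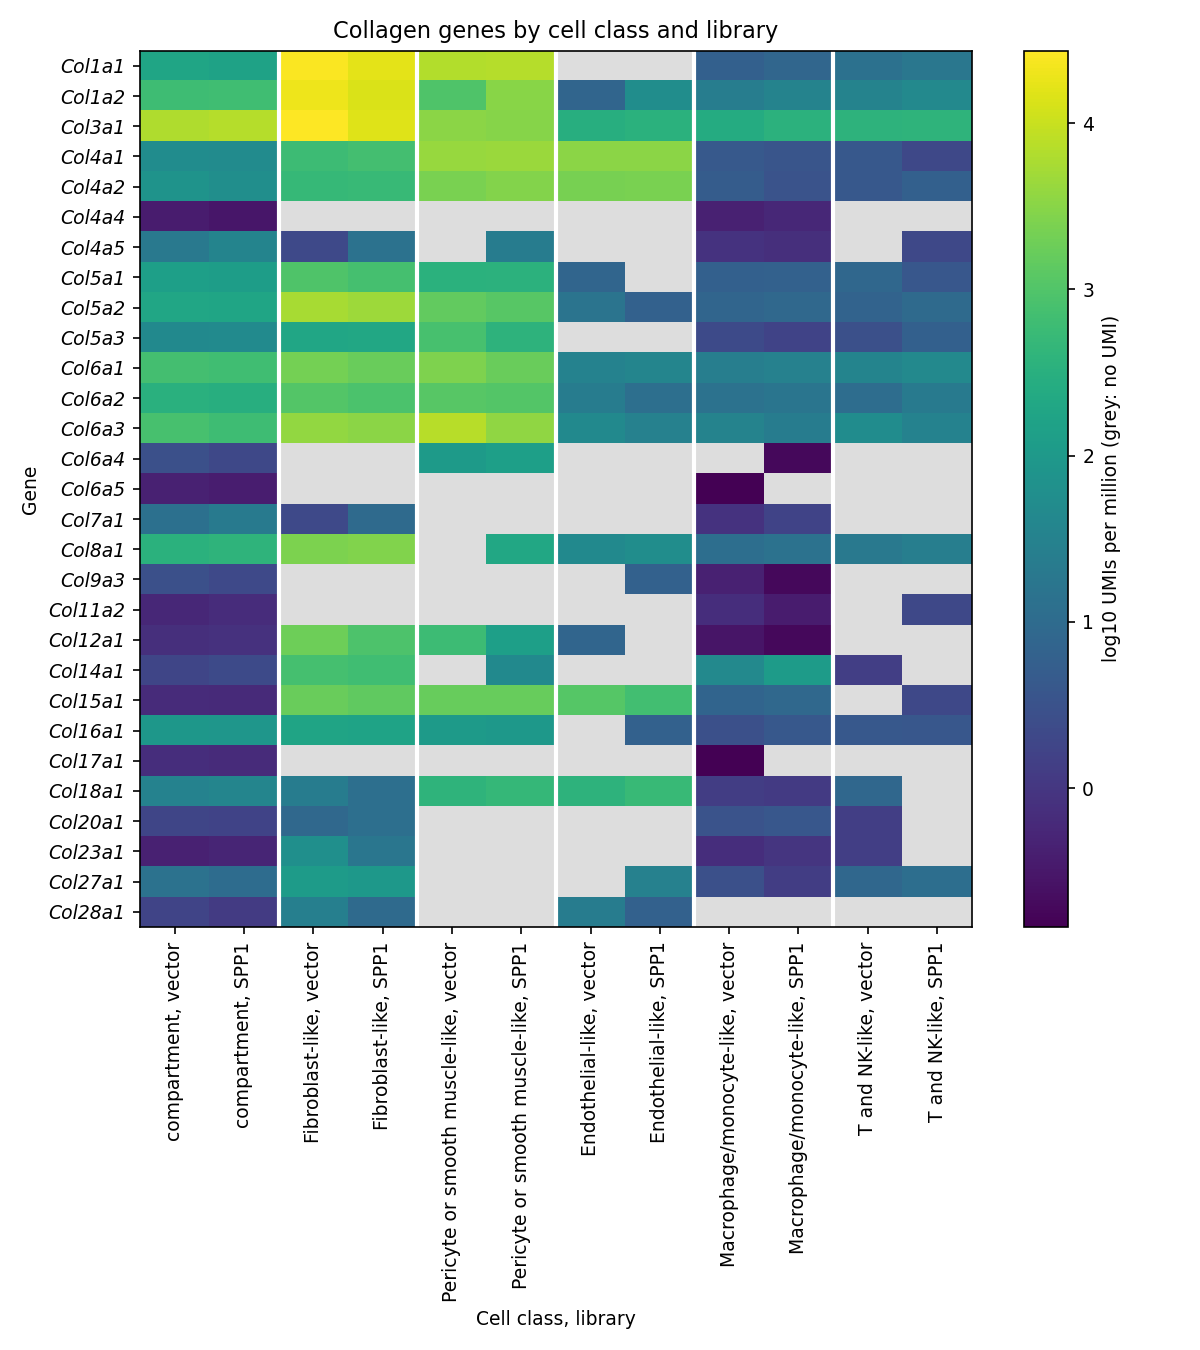
Heat map of log10 CPM for the 29 collagen genes with at least 100 UMIs, by cell class and library, with grey where no UMI was counted. Col3a1 was at 6430 and 6958 CPM in the compartment, and Col4a1 at 3347 and 3345 CPM in the endothelial-like columns.

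The stretches before the start sites of 3 members are shown because the results turn on these genes: Col3a1 and Col1a2, the fibrillar chains that the compartment held at unequal levels, and Col4a5, the member that differed between the libraries within the compartment. Each is a window of 250 bases, 5′ to 3′ on the gene's strand, from RefSeq on GRCm38.p6, an older build than the GRCm39 of the counts. Capitals mark motif matches.
Col3a1, chr1:45311288-45311537, plus strand: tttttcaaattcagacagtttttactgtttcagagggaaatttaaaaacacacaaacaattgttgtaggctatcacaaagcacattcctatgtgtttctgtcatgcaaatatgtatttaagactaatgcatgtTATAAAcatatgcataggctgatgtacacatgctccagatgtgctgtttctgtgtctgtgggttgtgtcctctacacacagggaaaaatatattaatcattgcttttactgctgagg
Col1a2, chr6:4505368-4505617, plus strand: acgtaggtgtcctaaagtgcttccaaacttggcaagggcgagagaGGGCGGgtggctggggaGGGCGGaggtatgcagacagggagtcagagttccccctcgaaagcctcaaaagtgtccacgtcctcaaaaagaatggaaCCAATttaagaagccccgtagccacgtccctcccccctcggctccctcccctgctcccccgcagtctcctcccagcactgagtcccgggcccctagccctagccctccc
Col4a5, chrX:141475169-141475418, plus strand: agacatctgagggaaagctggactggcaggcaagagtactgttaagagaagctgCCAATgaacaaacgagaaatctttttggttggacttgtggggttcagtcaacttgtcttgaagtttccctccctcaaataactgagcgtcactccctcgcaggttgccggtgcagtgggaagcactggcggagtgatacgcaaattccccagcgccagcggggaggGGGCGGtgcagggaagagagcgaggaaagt
The motifs were searched on both strands, and no matches overlapped in these windows. The letters of the TATA box were TATAAA. Those of the CCAAT box were CCAAT. Those of the GC box were GGGCGG. Those of the AP-1 site were TGANTCA. The Col3a1 window held a TATA box, whose first base lay 117 bases before the start, and none of the other motifs. The Col1a2 window held a pair of GC boxes, at 205 and 188 bases, and a CCAAT box at 109 bases. The Col4a5 window held a CCAAT box at 196 bases and a GC box at 30 bases. Of 32851 windows of this length, 12.4% held the TATA box, 33.8% the CCAAT box, 32.7% the GC box and 6.75% the AP-1 site. The table matched 35 of the 44 members with 38 windows, of which 5, 13, 22 and 1 held these motifs. Col1a1, Col2a1, Col4a3, Col5a2, Col9a3, Col12a1, Col14a1, Col22a1 and Col26a1 were not matched. A match describes the letters only.

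Type III led the 11 fibrillar genes in the compartment. Col3a1 was at 6430 and 6958 CPM and gave 65.1% of the compartment's collagen UMIs. Col1a2, the second chain of type I, was at 641 and 661 CPM, and Col1a1, the first chain, at 181 and 159 CPM. Both libraries thus held far more Col3a1 than either type I chain. Per kilobase of the longest annotated transcript, Col3a1 was at 1156 and 1251 CPM, Col1a2 at 119.8 and 124 CPM and Col1a1 at 30.6 and 26.8 CPM, so the order held. The type V chains, which sit in the core of type I fibrils, were lower than Col1a2. Col5a2 was at 194 and 183 CPM, Col5a1 at 137 and 125 CPM and Col5a3 at 47.0 and 49.4 CPM.

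The balance of chains set the compartment as a whole apart from fibroblast-like cells. In the compartment there were 0.283 (0.279 to 0.287) and 0.241 (0.237 to 0.244) UMIs of Col1a1 per UMI of Col1a2. In fibroblast-like cells there were 1.28 (1.24 to 1.31) and 1.20 (1.15 to 1.24). Col1a1 was the scarcer type I chain in the compartment as a whole and the more abundant one in fibroblast-like cells of both libraries. Compartment cluster 12, described below, was an exception, with 1.08 and 1.00 UMIs of Col1a1 per UMI of Col1a2. UMIs of Col3a1 per UMI of Col1a1 were 35.4 and 43.7 in the compartment against 1.05 and 0.902 in fibroblast-like cells. For type V, UMIs of Col5a1 per UMI of Col5a2 were 0.709 and 0.686 against 0.177 and 0.172. For type VI, Col6a1 per UMI of Col6a2 differed less, with 2.19 and 2.30 against 2.04 and 1.98. Col6a3 per UMI of Col6a2 differed more, with 2.48 and 2.15 against 3.73 and 3.74. For type IV, UMIs of Col4a1 per UMI of Col4a2 were 0.703 and 0.880 against 1.20 and 1.37.

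**Figure D2:**
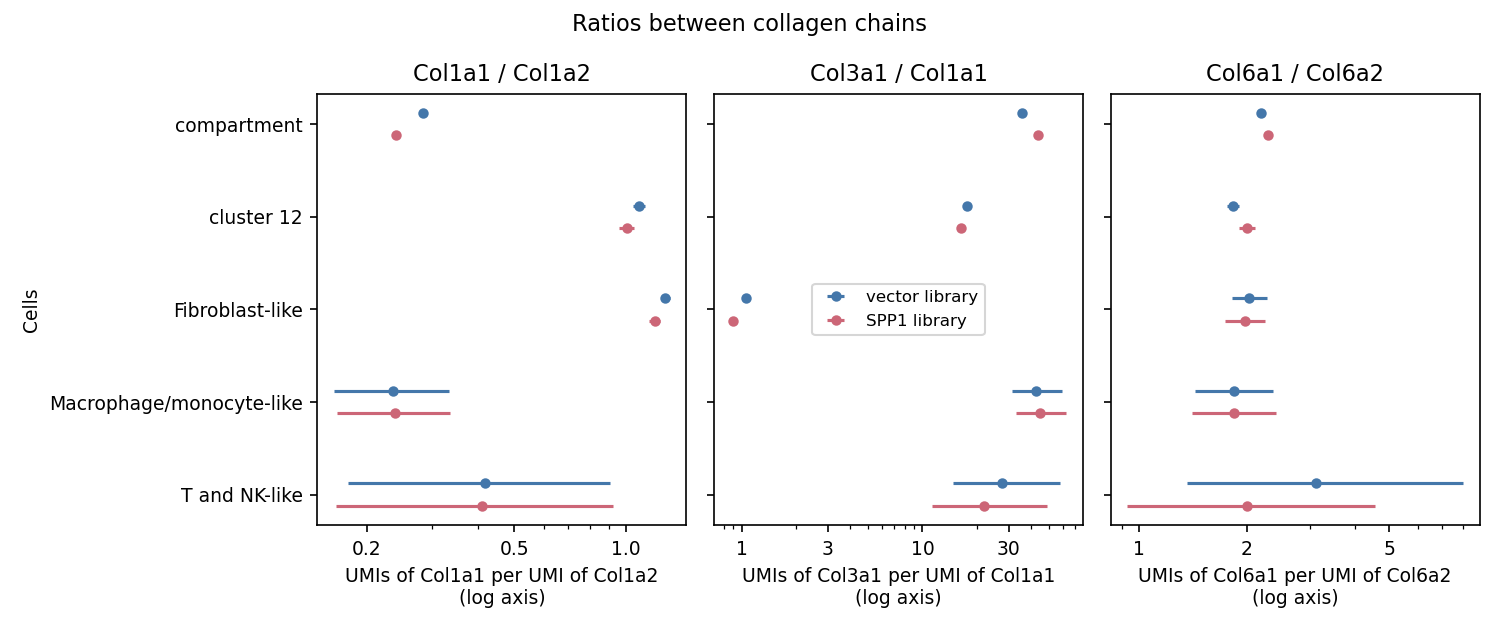
UMIs of one collagen chain per UMI of another (log axes) in 5 sets of cells, with points for each library and bars for 95% counting intervals. The ratio of Col1a1 to Col1a2 was 0.283 and 0.241 in the compartment, 1.08 and 1.00 in its cluster 12 and 1.28 and 1.20 in fibroblast-like cells.

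Col3a1 varied strongly between the states of the compartment. It was at 22025 and 19504 CPM in cluster 4, led by Pcdh9 and Magea9, and at 21432 and 16648 CPM in cluster 12, led by Cadm2 and Id3. In cluster 1, led by Lbp, Dpt and Cd55, it was at 15195 and 13379 CPM, and in cluster 9, led by Ppm1n and Gipc2, at 14501 and 12016 CPM. These 4 clusters were the highest in both libraries. The clusters led by genes of cell division were low, with 1974 and 1682 CPM of Col3a1 in cluster 2, 2432 and 2205 CPM in cluster 5 and 2544 and 2707 CPM in cluster 8. The clusters led by interferon-induced genes lay between, with 7727 and 6121 CPM in cluster 13 and 7836 and 7163 CPM in cluster 15. In cluster 10, led by Cryab and Gdf15, the libraries differed more than in these clusters, with 3495 and 7776 CPM.

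The level of Col1a1 stood out in 1 cluster, and its UMIs were concentrated in few cells. In cluster 12, of 429 and 278 cells, it was at 1215 and 1020 CPM. This cluster held 6286 of the compartment's 25831 Col1a1 UMIs in the vector library and 3362 of 22201 in the SPP1 library. Cluster 1 held 5499 in the vector library, and cluster 4 held 5581 in the SPP1 library. The next highest level was that of cluster 9 in the vector library, at 297 CPM, and of cluster 4 in the SPP1 library, at 334 CPM. Cluster 18 was the lowest in both (27.5 and 47.8 CPM). The 10% of compartment cells with the most Col1a1 held 79.9% and 79.8% of its UMIs, against 28.6% and 29.0% for Col1a2 and 38.9% and 35.9% for Col3a1. In cluster 12 there were still 17.6 and 16.3 UMIs of Col3a1 per UMI of Col1a1. Cluster 12 was also the highest for Col5a2 (603 and 476 CPM) and Col6a1 (1475 and 1390 CPM) in both libraries. The summed level of Hmga2, Sox9, Tafa1 and Hoxa9, the genes by which the compartment was named, was 2487 and 2815 CPM in cluster 12 and 244 and 267 CPM in fibroblast-like cells. Sub-clusters with much of these genes were kept out of the fibroblast-like class, so the direction of this contrast was set by that rule.

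Some fibroblast markers were high in the clusters with the most Col3a1. By the rule used for naming, 5 of 13 were raised in cluster 12, 4 in cluster 1 and 4 in cluster 9, while in cluster 4 the fibroblast list was not the best match. The remaining markers were not raised by this rule in clusters 12, 1 and 9. There the mean log2 ratio of all 13 over the other kept cells was 0.26, 0.52 and 0.41. The share of all genes raised by this rule was not computed. The 13 markers summed to 5881 and 6801 CPM in cluster 12, 6102 and 7012 CPM in cluster 1, 6247 and 6227 CPM in cluster 9 and 5275 and 5304 CPM in cluster 4. In cluster 2 they summed to 1356 and 1441 CPM and in fibroblast-like cells to 9004 and 8140 CPM. All 13 had a UMI in the compartment as a whole, while Smoc2 was at 0 in clusters 9 and 12 of both libraries. Their part in the collagen levels was not tested.

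**Figure D3:**
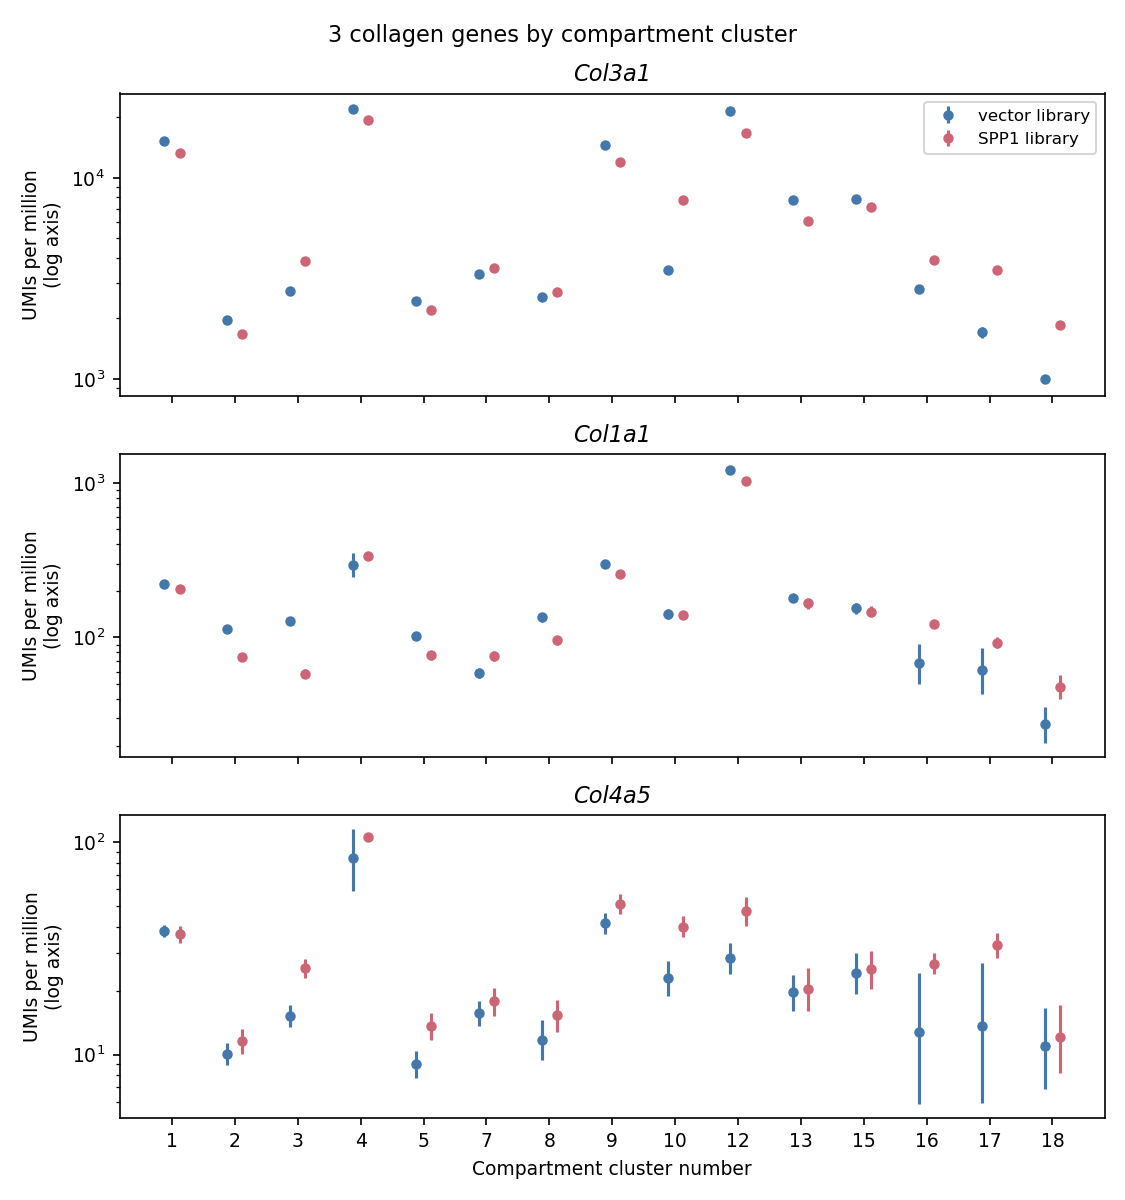
CPM (log axes) of Col3a1, Col1a1 and Col4a5 in the 15 compartment clusters, by library, with bars for 95% counting intervals. Col1a1 stands apart in cluster 12 at 1215 and 1020 CPM, and Col4a5 is highest in cluster 4 at 83.8 and 106 CPM.

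Genes were ranked by the likeness of their levels to Col1a1 and Col3a1 over compartment clusters with at least 50 cells, 13 in the vector library and 15 in the SPP1 library, as the lower of 2 Spearman coefficients among 8522 genes. Closest to Col1a1 was Ddah2 (0.95 and 0.93), then Unc5b, Col5a2, Loxl1 and Zcchc24. Closest to Col3a1 was Herpud2 (0.97 and 0.96), then Ypel3, Wls, Stx4a and Pyroxd2. Col5a1 followed at 0.94 and 0.97. Col6a3 (0.29 and 0.12) and Col8a1 (0.14 and -0.21) ranked unlike Col3a1. The clusters share their library and differ in depth, so these coefficients are a description.

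Type VI followed type III in the compartment. Col6a3, the largest of its main chains, was at 805 and 626 CPM (-0.36, -0.38 to -0.35). Col6a1 was at 711 and 669.6 CPM (-0.088, -0.10 to -0.075) and Col6a2 at 324 and 291 CPM (-0.15, -0.17 to -0.14). All 3 were lower in the SPP1 library, and none reached 1.5-fold. Col6a3 varied little between clusters, its highest being 2.07 and 1.92 times its lowest, against 22.0 and 11.6 times for Col3a1 and 44.2 and 21.3 times for Col1a1. The remaining genes of this group, Col6a4, Col6a5, Col6a6, Col26a1 and Col28a1, were each under 3 CPM.

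Col8a1, a short-chain network collagen, was at 334 and 396 CPM (0.24, 0.23 to 0.26). It was at 587 and 805 CPM in cluster 16 and 660.0 and 719 CPM in cluster 17, both led by Magea9 and Pdgfc, where Col3a1 was at 2788 and 3892 CPM and 1703 and 3477 CPM. Col16a1, a fibril-associated collagen, was at 89.9 and 85.2 CPM (-0.078, -0.11 to -0.042), while the other 8 genes of that group were each under 3 CPM in the compartment. Among them Col9a2 had no UMI in either library. The short-chain gene Col10a1 had none in the vector library's compartment cells and 2 in those of the SPP1 library. Over all kept cells it had 19 and 4 UMIs, and 82.6% of these lay in fibroblast-like cells. The 4 transmembrane collagen genes were each under 1 CPM.

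The basement membrane network was low in the compartment. Col4a2 was at 75.5 and 58.3 CPM (-0.37, -0.42 to -0.33) and Col4a1, with which it forms the common type IV network, at 53.1 and 51.3 CPM (-0.050, -0.097 to -0.0030). Both were high in cluster 12 and in cluster 7, led by Fbxl7, where Col4a2 was at 127 and 112 CPM and at 128 and 109 CPM. Col4a5 was at 19.8 and 34.3 CPM. Its partner in some basement membranes, Col4a6, had 42 and 30 UMIs in the whole compartment. Col18a1, a multiplexin of basement membranes, was at 32.3 and 36.3 CPM (0.17, 0.11 to 0.23).

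Between the libraries a gene counted as higher or lower when its whole interval lay beyond 1.5-fold, among genes with at least 100 UMIs over both. Of the 44 collagen genes 28 had that many in the compartment, and the other 16 had at most 53 and 42 UMIs. Only Col4a5 was higher in the SPP1 library (background 1.72% of 15450 genes) and none was lower (background 0.447%). The median log2 ratio of the 28 was -0.08, beside 0.0036 over all genes. Col4a5, at 19.8 and 34.3 CPM (0.79, 0.73 to 0.86), did not pass in cells thinned to 1000 UMIs. Col7a1, the anchoring fibril collagen, was at 13.1 and 20.7 CPM (0.66, 0.57 to 0.74), just short of the rule.

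The Col4a5 difference moved with clusters found mostly in 1 library. Clusters 4, 16 and 17 held 55, 30 and 27 cells of the vector library and 1573, 508 and 412 cells of the SPP1 library. Col4a5 was highest in cluster 4 in both, at 83.8 and 106 CPM, against 41.5 and 51.2 CPM in cluster 9 and 10.0 and 11.5 CPM in cluster 2. Without clusters 4, 16 and 17 Col4a5 was at 19.7 and 23.9 CPM (0.28, 0.20 to 0.36) and Col7a1 at 13.0 and 17.5 CPM (0.43, 0.33 to 0.52), and neither passed. Col3a1 turned from 0.11 to -0.22 without them, and Col1a1 went from -0.19 to -0.39. With 1 tumour per group, the SPP1 label and the individual tumour cannot be told apart.

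**Figure D4:**
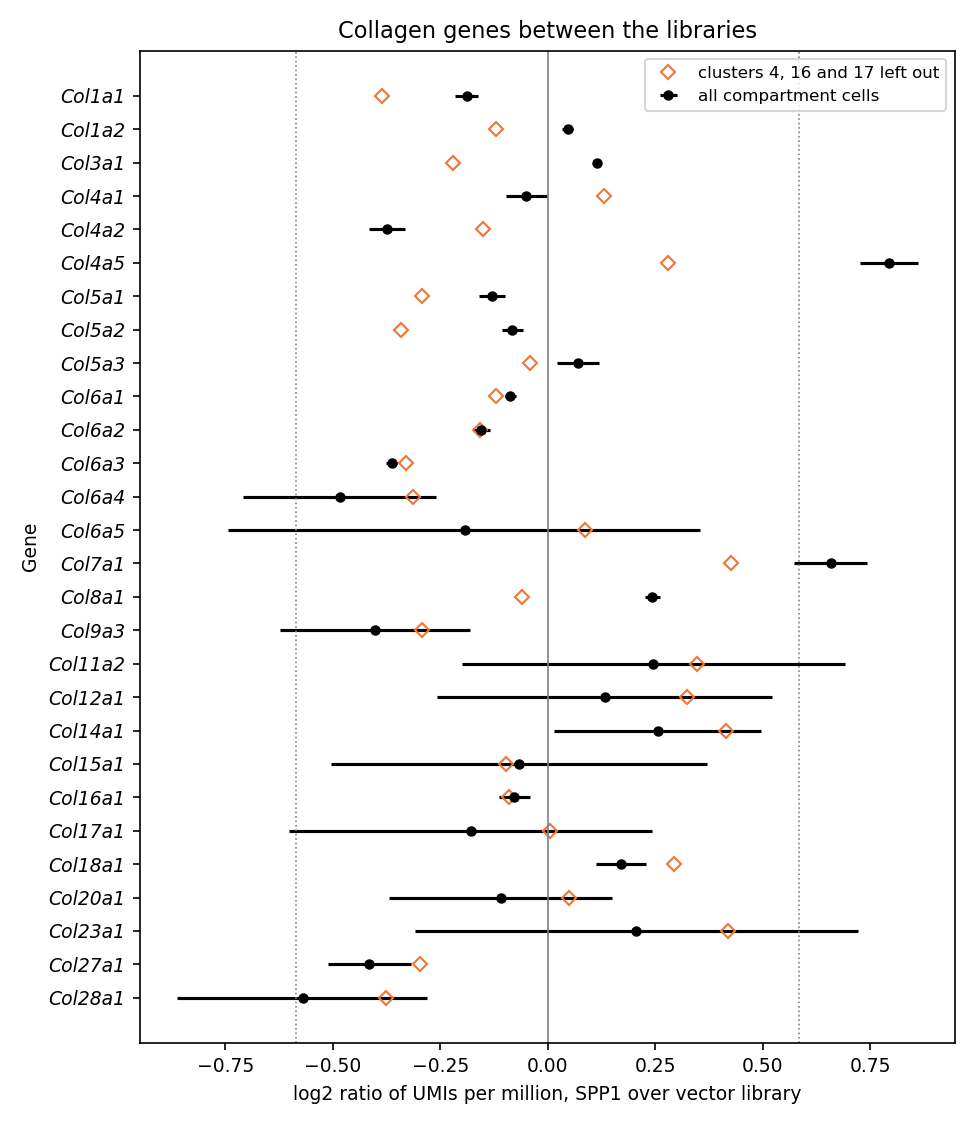
Log2 ratio of CPM in the compartment, SPP1 over vector library, for the 28 collagen genes with at least 100 UMIs. Black points with 95% counting intervals use all cells, orange diamonds leave out clusters 4, 16 and 17, dotted lines mark 1.5-fold, and Col4a5 moves from 0.79 to 0.28.

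Of the classes, fibroblast-like cells held the highest levels of Col1a1, Col3a1, Col1a2 and Col5a2. The fibrillar Col5a3 was at 194 and 214 CPM there and at 779 and 376 CPM in pericyte or smooth muscle-like cells. Col1a1 was at 25960 and 16435 CPM, Col3a1 at 27309 and 14825 CPM and Col1a2 at 20320 and 13753 CPM. Col5a2 followed at 5498 and 4516 CPM and Col6a3 at 3871 and 3244 CPM. Between classes a gene counted when its whole interval lay beyond 2-fold in both libraries. Of 28 collagen genes with enough UMIs, 18 were higher than in the compartment (background 4.15%) and none was lower (background 2.51%).

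The size of that difference depended on the chain. Col1a1 was 143 and 103 times as high as in the compartment and Col1a2 31.7 and 20.8 times, but Col3a1 only 4.25 and 2.13 times. Col6a1 was 2.97 and 2.57 times as high. Col12a1, a fibril-associated collagen, was at 1879 and 908 CPM against 0.766 and 0.839 CPM in the compartment. Col15a1, a multiplexin, was at 1724 and 1381 CPM against 0.653 and 0.624 CPM. Col14a1, which binds the surface of fibrils, was at 764 and 672 CPM against 1.87 and 2.23 CPM. The compartment, with far more cells, still held 25.2% of all Col14a1 UMIs, beside 27.6% in fibroblast-like cells. Of the 989 and 1301 Col14a1 UMIs, fibroblast-like cells held 354 and 279 and macrophage/monocyte-like cells 306 and 620.

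Between the libraries 3 of 16 collagen genes were lower in the SPP1 library in fibroblast-like cells (background 3.06%) and none was higher (background 2.3%). The median log2 ratio of the 16 was -0.27, beside 0.05 over all genes tested. The 3 were Col3a1 (-0.88, -0.93 to -0.84), Col1a1 (-0.66, -0.70 to -0.62) and Col12a1 (-1.05, -1.23 to -0.87). The make-up of the class differed as well, which was looked at after these values were seen. A sub-cluster led by Col12a1, Cxcl14 and Pcsk5 held 19 and 7 cells, and one led by Igfbp5, Mfap5 and Meg3 held 22 and 38. In the latter Col3a1 was at 16174 and 13886 CPM (-0.22, -0.29 to -0.15), Col1a1 at 17388 and 15967 CPM (-0.12, -0.19 to -0.057) and Col12a1 at 938 and 668 CPM (-0.49, -0.79 to -0.18). In the former Col3a1 was at 33356 and 18348 CPM (-0.86, -0.94 to -0.79), where 3 of the 7 cells of the SPP1 library gave 84.6% of its UMIs. None of the 3 genes passed the 1.5-fold rule in the larger sub-cluster. Clusters of low depth led by Myog and Actc1 (33 and 58 cells) and by Rarres2 and Serping1 (0 and 16 cells) were kept out of the class by thresholds set after the data were seen.

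Endothelial-like cells were rich in the vessel basement membrane. Col4a1 was at 3347 and 3345 CPM and Col4a2 at 2257 and 2397 CPM. Col15a1 was at 1105 and 681 CPM and Col18a1, the source of endostatin, at 381 and 527 CPM. These 4 of 28 collagen genes were higher than in the compartment (background 3.29%), Col4a1 63.1 and 65.3 times. Another 10 were lower (background 1.32%). Col3a1 was at 288 and 341 CPM, 4.48% and 4.90% of the compartment's level. Col1a1 had no UMI, which allows up to 23.3 and 18.6 CPM (3 counts per library), so the compartment was at least 7.77-fold and 8.57-fold higher. Of 4 genes with enough UMIs to compare the libraries, none was higher (background 0%) or lower (background 1.04%) in the SPP1 library.

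The pericyte or smooth muscle-like cells held fibrillar and network collagens together. Col1a1 was at 6681 and 6953 CPM, Col6a3 at 7460 and 3571 CPM and Col3a1 at 3285 and 3077 CPM. Col4a1 was at 4175 and 4346 CPM and Col4a2 at 2394 and 2842 CPM. Of 28 collagen genes 11 were higher than in the compartment (background 1.11%) and none was lower (background 0.142%). Between the libraries 1 of 7 was higher in the SPP1 library (background 3.28%), Col1a2 at 946 and 3218 CPM, and 1 was lower (background 3.28%), Col6a3. These are 4 and 7 cells, and 3 cells gave 98.5% and 83.6% of the Col6a3 UMIs.

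In macrophage/monocyte-like cells most collagen genes stood at a like small fraction of the compartment's level. Col3a1 was at 254 and 353 CPM, which is 3.94% and 5.08% of it. The fraction was 3.96% and 4.99% for Col1a2, 3.73% and 4.42% for Col6a1 and 3.30% and 4.94% for Col1a1. Of the genes that mark the compartment, Hmga2 was at 2.93% and 3.71% and Sox9 at 3.86% and 4.92%. In T and NK-like cells, which should lack collagen, Col3a1 was at 5.91% and 5.65% and Sox9 at 7.29% and 6.86%. Thinned to 1000 UMIs per cell, 24.2% and 31.4% of macrophage/monocyte-like cells had a Col3a1 UMI, below the 39.1% and 42.6% of T and NK-like cells. No expression is read from a share below that of a class that should lack the gene, and the source of these UMIs was not tested. UMIs of Col3a1 per UMI of Col1a1 were 42.4 and 44.9, near the compartment's. Of 29 collagen genes 18 were lower than in the compartment (background 13.9%).

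Col14a1 and Col15a1 were higher in macrophage/monocyte-like cells than in the compartment (2 of 29, background 10.3%). Col14a1 was at 44.6 and 116 CPM, 23.9 and 52.1 times the compartment's level, and Col15a1 at 7.15 and 8.81 CPM. T and NK-like cells held 1 UMI of Col14a1 in the vector library and none in the SPP1 library. There the macrophage/monocyte-like level was 19.5 times what 3 counts in T and NK-like cells would give. Against T and NK-like cells 1 of 9 collagen genes, Col14a1, was higher (background 8.59%) and none was lower (background 4.32%). Col15a1 had too few UMIs for that comparison, with 49 and 47 in macrophage/monocyte-like cells and 0 and 1 in T and NK-like cells. Its intervals in the 2 classes, as a percentage of the compartment's level, overlapped in both libraries. Col1a1 was at 25960 and 16435 CPM in fibroblast-like cells and at 5.98 and 7.87 CPM in macrophage/monocyte-like cells. The source of the Col14a1 and Col15a1 UMIs in macrophage/monocyte-like cells was not tested.

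**Figure D5:**
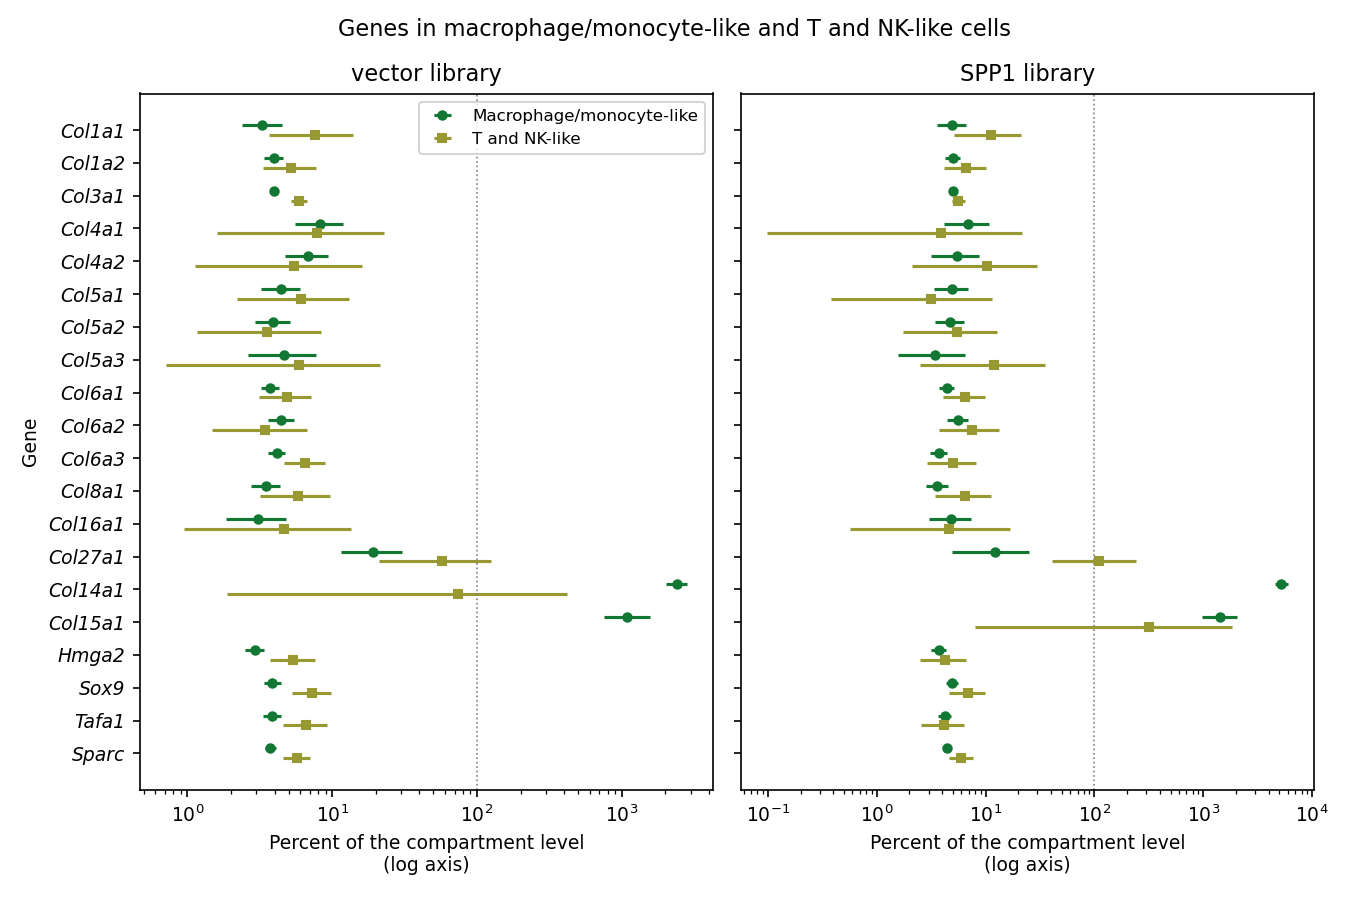
Level in macrophage/monocyte-like (circles) and T and NK-like cells (squares) as a percentage of the compartment's level (log axes), by library, with 95% counting intervals and a dotted line at 100%. Col14a1 (2389% and 5209%) and Col15a1 (1094% and 1412%) lie far right of Col3a1 (3.94% and 5.08%) in macrophage/monocyte-like cells.

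Col14a1 also differed between the libraries in macrophage/monocyte-like cells. It was at 44.6 and 116 CPM (1.38, 1.18 to 1.58) and was the 1 of 7 collagen genes with enough UMIs that was higher in the SPP1 library (background 0.412%), while none was lower (background 0.176%). Thinned to 1000 UMIs, 3.70% and 10.9% of cells had a Col14a1 UMI. The sub-clusters were looked at after these values were seen. Col14a1 was highest in the one led by Fcrls, F13a1 and Gpr34 (86 and 170 cells), at 113 and 217 CPM (0.94, 0.56 to 1.32). It was at 78.4 and 143 CPM (0.86, 0.51 to 1.22) in the one led by Arl6ip1 and Fcrls. The one led by Thbs1 and Clec7a had 27.2 and 19.2 CPM (-0.50, -1.49 to 0.41), so not every sub-cluster was higher in the SPP1 library. The 3 cells with the most Col14a1 gave 8.50% and 4.84% of its UMIs.

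In dendritic cell-like cells the 1 collagen gene with enough UMIs was neither higher (background 1.2%) nor lower (background 1.52%) in the SPP1 library. The same held for the 1 gene in T and NK-like cells (background 0.56% and 0.69%).

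Of 29 genes for processing and crosslinking collagen, 25 had enough UMIs in the compartment. None was higher in the SPP1 library and 2 were lower, beside backgrounds of 1.72% and 0.447%. The median log2 ratio was 0.10, beside 0.0036 over all genes. Pcolce2, which aids the trimming of procollagen, was at 47.8 and 26.3 CPM (-0.86), and P3h2, a prolyl hydroxylase, at 5.87 and 2.29 CPM (-1.36). Against the compartment 10 of 26 were higher in fibroblast-like cells (background 4.15%) and none was lower (background 2.51%). Lox, which crosslinks collagen, was at 0.197 and 0.129 CPM in the compartment and 1713 and 1227 CPM in fibroblast-like cells. Its relative Loxl1 was at 51.3 and 50.1 CPM and 753 and 569 CPM. Serpinh1, the collagen chaperone, was at 583 and 626 CPM and 2043 and 2080 CPM. The compartment thus held the chaperone, while Lox was near 0.

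Of 10 collagen receptor and uptake genes, 8 had enough UMIs in the compartment, and none was higher (background 1.72%) or lower (background 0.447%) in the SPP1 library. The median log2 ratio was -0.11, beside 0.0036 over all genes. Ddr2, a receptor kinase for fibrillar collagen, was at 313 and 276 CPM there. Itga1, an integrin chain that binds collagen, was at 1.62 and 1.48 CPM in the compartment and 226 and 217 CPM in endothelial-like cells. By the 2-fold rule it was also higher than in the compartment in fibroblast-like, pericyte or smooth muscle-like and macrophage/monocyte-like cells. Lair1, an inhibitory collagen receptor of immune cells, was at 257 and 229 CPM in macrophage/monocyte-like cells and 0.471 and 0.437 CPM in the compartment.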

How the data were processed

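Groups were taken from the labels, with 1 tumour each. The authors deposited raw UMI counts per gene and barcode (whole numbers, unscaled). Per the submitters' processing notes, Cell Ranger 2.1.1 and GRCm39 were used. Tumours were dissociated with enzymes and strained, per the labels' protocols. How barcodes were called as cells, the annotation release and any doublet removal before deposit are not stated in what was used here.

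Kept cells had 300 or more genes, 500 or more UMIs and no more than 15% mitochondrial UMIs (14243 and 13956). A new implementation of the Scrublet approach (expected rate 0.06, 2 simulated doublets for each cell) marked 281 (1.97%) and 401 (2.87%) as doublets, which were removed. Free RNA was not removed. Cells were clustered by the Leiden method at resolution 1.0 on 30 components of 2000 variable genes without collagen genes, with 20 neighbours and no batch integration (Python 3.11.15, numpy 2.4.6, scipy 1.17.1, pandas 2.3.3, igraph 0.11.9, leidenalg 0.10.2). Classes were named from marker lists, with thresholds set after the data were seen. Clusters of low depth (2305 and 2379 cells) or mixed markers (316 and 278 cells) entered no comparison. Neither did a sub-cluster left unnamed by these rules (20 and 10 cells), in which 10 of 11 T and NK-like markers were raised.

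UMIs were summed per class and library, with exact Poisson intervals for levels and exact binomial intervals for ratios. The intervals for ratios were tested on simulated data with counting error alone, and those for levels were not. A zero was bounded by 3 counts. Lengths are those of the longest GENCODE M21 transcript, although UMIs need not scale with length. Named in full are members with at least 50 CPM in the compartment, members past 1.5-fold and the 5 highest of 4 other classes. Other members named, such as Col7a1, Col12a1, Col14a1 and Col15a1 outside these classes, were chosen after their values were seen. Genes most like Col1a1 and Col3a1 are the first 5 in rank. Members and lists were chosen with earlier results of these data known.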

Additional observations from a re-analysis of the deposited data

Results flagged for a closer look

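The ratio of Col3a1 between the libraries pointed both ways across groups of cells, which was looked for among clusters after seeing the data. It was higher in the SPP1 library in compartment cluster 10 (487 and 725 cells), with a log2 ratio of 1.15, and in cluster 18 (128 and 139 cells), with 0.89. It was lower in fibroblast-like cells (41 and 45 cells), with -0.88. Among the other compartment clusters with Col3a1 levels given above, the direction was split as well. Clusters 8, 16 and 17 were higher in the SPP1 library and clusters 1, 2, 4, 5, 9, 12, 13 and 15 lower. With 1 tumour per group the difference between these ratios was not tested.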

How the results depend on the processing

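No paired analysis was possible because each group was 1 tumour and no result comes from a test. Values are log2 ratios of collagen shares unless said otherwise. In the compartment, SPP1 over vector, the value was 0.044. It turned to -0.20 without the clusters found mostly in 1 library, to -0.11 with clusters weighted equally and to -0.088 without Col3a1. It was 0.065 with collagen genes among the variable genes, 0.064 at resolution 2.0, 0.067 with at least 1000 genes and at most 10% mitochondrial UMIs, 0.0099 in cells thinned to 1000 UMIs and 0.11 without cluster 12. The count of collagen genes higher in the SPP1 library, 1, was 0 in thinned cells, without the clusters of 1 library, with equal weights and at 2-fold, and 2 (Col4a5 and Col7a1) without cluster 12.

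For fibroblast-like cells over the compartment the value was 3.24 in the vector library, 2.75 in thinned cells, 3.08 without the 3 highest cells and 4.22 without Col3a1. In the SPP1 library it was 2.61, 2.23 in thinned cells, 2.56 without the 3 cells, 3.82 without Col3a1, 2.59 with collagen genes variable, 2.60 at resolution 2.0 and 2.58 with the stricter filter. For macrophage/monocyte-like over T and NK-like cells it was -0.37 in the vector library, -0.90 with doublets kept, -0.58 in thinned cells and -0.048 without Col3a1. In the SPP1 library it was 0.029, 0.93 with doublets kept, 0.29 without Col3a1, and it turned to -0.048 with collagen genes variable, -0.042 with the stricter filter and -0.078 in thinned cells. The cause was not tested. Of 209 alternative values of 24 single-value results, 156 stayed within their limits and 53 moved. Col14a1 in macrophage/monocyte-like cells ran from 1.35 to 1.69. Leaving out Col3a1, cluster 12 or the shared barcodes was chosen after seeing the data. Values of fibroblast-, endothelial- and pericyte-like cells rest on few cells.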
